A study of Mus musculus with 16 samples.

Results

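All 8 libraries of trained mouse skeletal muscle were compared with all 8 libraries of untrained muscle, with genotype as a covariate, and the training response was then read in each genotype for its direction. The comparison used all 16 libraries of the series. Of 17490 genes tested, 10206 (58.4%) had a training response of the same sign in both genotypes, 5270 of them higher and 4936 lower after training. Of the 17490, 48 genes (0.274%) passed the test for training, called in what follows, and all 48 had the same direction in both genotypes (0.274% of tested genes).

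The series is an RNA-seq study of 4 groups of 4 libraries: WT without training, WT with treadmill training, CHCHD4 Tg without training and CHCHD4 Tg with treadmill training, the last pair being called Tg here. CHCHD4 is an oxidoreductase of the mitochondrial intermembrane space that forms disulfide bonds in imported proteins. The labels name no muscle, strain, age, sex, transgene promoter or training length. Whether each library is a different mouse is not stated, and the p-values therefore cover only the variation from library to library. Chchd4 lay between 6.88 and 8.98 CPM (counts scaled to library size) in the WT libraries and between 18.1 and 22.2 CPM in the Tg libraries, so every library matched its genotype label. Its response to training was a log2 fold change (log2FC) of 0.07 (SE 0.057, adjusted p = 0.585, edgeR), which was not called. No transcript was used to check the training labels.

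Endurance training of muscle is known for raising mitochondrial content, capillary supply and the use of fatty acids, a programme in which the coactivator PGC-1alpha takes part. Muscle samples also hold cells other than fibres: endothelium, fibroblasts, tendon cells, nerve and adipocytes, the last of which sit between fibres and shrink when fat stores are used. Adipocytes secrete the hormones leptin and adiponectin and make fat under the control of the transcription factors PPARgamma and C/EBPalpha. In bulk RNA, fewer cells of a type and less RNA of that type per cell cannot be told apart.

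Library totals ran from 40888325 to 61703724 counts, with means of 50466151 in trained and 49011556 in untrained libraries. Certain libraries stood apart from the rest of their group. WT untrained replicate 2 had the highest scaling factor (1.285, against a lowest factor of 0.924) and the lowest summed level of 15 myofibre markers, 152600 CPM, against 193500 to 228700 CPM in the other libraries. Alb, a liver transcript, exceeded 10 CPM in WT trained replicate 4 (35.6 CPM), WT untrained replicate 2 (14.9 CPM) and Tg untrained replicate 2 (14.97 CPM). Myh7, the slow-twitch myosin gene, exceeded 10 CPM in WT trained replicate 3 (29.7 CPM), WT untrained replicate 2 (11.2 CPM) and Tg untrained replicates 2 and 3 (64.3 and 42.1 CPM). Without the libraries with raised Myh7, 7 genes were called, and Sbk2 was the only one of them among the 48. Without the libraries with raised Alb, 499 genes were called, with all 48 among them.

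Of the 48 called genes, 15 were higher after training (0.0858% of tested genes) and 33 were lower (0.189%). The higher genes moved little: their log2FC ran from 0.21 to 1.08 with a median of 0.33, a 1.26-fold rise, and 13 of the 15 changed by less than 1.5-fold. The lower genes moved further, with log2FC from -2.89 to -0.21 and a median of -0.79, and 12 of the 33 were past 2-fold. They were also less abundant, with a median level of 2.39 CPM against 10.2 CPM for the higher genes. A mean under 1 CPM was seen for 7 of the lower and 0 of the higher genes. Genes with few counts need a larger change to be called, so the sizes in the 2 directions are not directly comparable. Every one of the 48 also had an unadjusted p under 0.05 in the contrast of each genotype (0.274% of tested genes). The spread for these contrasts was estimated over all 16 libraries. The WT and Tg contrasts share no library, but both enter the combined test, so this count is a description. In all, 275 tested genes (1.57%) had an unadjusted p under 0.05 and the same sign in each genotype, 104 higher and 171 lower, out of 311 with such a p in each. The share of genes with matching signs was 67.7% among 1670 genes with an unadjusted p under 0.05 in WT, and 70.8% among 1938 such genes in Tg, against 58.4% of all tested genes.

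**Figure D1:**
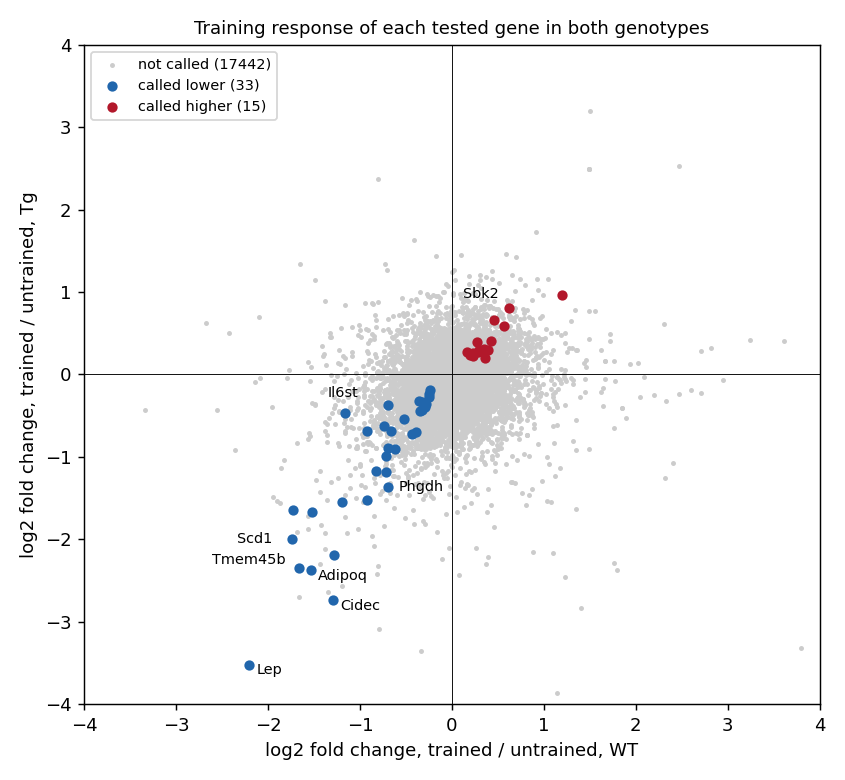
Training log2FC in WT (horizontal axis) and in Tg (vertical axis) of the tested genes, each point a gene, with called genes in colour. All 48 called genes lie in the lower left or upper right quadrant. The 33 lower genes, which were less abundant in the median, reach further from 0 than the 15 higher ones. The combined test makes a call with opposite signs unlikely.

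Within a single genotype the number of called genes depended on the fit. Training in WT gave 25 called genes (0.143% of 17490), of which 2, Wipf2 and Zfp185, were among the 48, and training in Tg gave 0 (0% of 17490) in edgeR, where the lowest adjusted p was 0.132, 1938 genes had an unadjusted p under 0.05, DESeq2 called 126 and limma-voom 0. In edgeR, Tg gave 93 called genes without WT untrained replicate 2. With the 8 libraries of a genotype fitted alone, edgeR called 123 genes in Tg and 10 in WT. The difference between the training responses of the genotypes was called for 9 genes (0.0515%), and none of the 48 was among them. Zfp185, which encodes an actin-associated LIM domain protein, was the only one of the 48 with an unadjusted p under 0.05 for that difference in edgeR, and the lowest adjusted p of the 48 was 0.729. Its log2FC was -1.17 in WT and -0.46 in Tg. The change was larger in Tg than in WT for 25 of the 33 lower genes and 8 of the 15 higher genes, differences that did not pass the test gene by gene.

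Sbk2 (ENSMUSG00000030433.15, GRCm38 chromosome 7, 4940512 to 4964406) had the smallest p of all genes. It encodes a serine/threonine kinase of the SH3-domain-binding kinase family found in striated muscle. WT untrained libraries measured 37.5, 37.0, 39.6 and 39.8 CPM and WT trained libraries 64.4, 66.1, 48.9 and 57.0 CPM. Tg untrained libraries measured 34.1, 36.2, 33.1 and 23.4 CPM and Tg trained libraries 58.1, 59.1, 43.5 and 61.3 CPM. Each trained library was above every untrained library of either genotype. The log2FC was 0.71 (SE 0.093, adjusted p = 0.0105, edgeR), 0.62 in WT and 0.81 in Tg, and Sbk2 was the only gene called whichever library was left out, with a highest adjusted p of 0.0449. Of the 15 genes listed as SBK and other striated muscle kinases or their partners, 14 had a positive log2FC, with a median of 0.11, and Sbk2 alone was called. Its relatives measured log2FC of 0.14 for Sbk1 (adjusted p = 0.399) and 0.58 for Sbk3 at 0.178 CPM on average (adjusted p = 0.407).

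Popdc2, Trp53inp2, Micu2 and Idh1 rose by less than Sbk2, and the cells in which they rose were not tested. Popdc2, which encodes a cAMP-binding membrane protein of heart and skeletal muscle, measured 17.7, 17.9, 20.5 and 21.4 CPM in WT untrained and 23.0, 22.8, 22.4 and 22.6 CPM in WT trained libraries. In Tg it measured 19.1, 18.3, 19.0 and 18.1 CPM untrained and 23.3, 21.7, 22.2 and 22.3 CPM trained. All 8 trained libraries of Popdc2 were above all 8 untrained ones, for a log2FC of 0.25 (SE 0.041, adjusted p = 0.0356). Trp53inp2, a cofactor of autophagy that shuttles between nucleus and cytosol, ran from 187 to 216 CPM (median 199.8) in trained and from 137 to 183 CPM (median 159) in untrained libraries, also without overlap (log2FC 0.33, SE 0.060). Micu2, a gatekeeper of the mitochondrial calcium uniporter, ran from 13.8 to 15.5 CPM (median 14.2) in trained and from 11.4 to 14.3 CPM (median 12.2) in untrained libraries, and WT untrained replicate 2 at 14.3 CPM made the groups overlap (log2FC 0.22, SE 0.045). Idh1, the cytosolic NADP-dependent isocitrate dehydrogenase, ran from 13.8 to 16.5 CPM (median 15.1) in trained and from 12.5 to 14.2 CPM (median 12.9) in untrained libraries. The overlap for Idh1 was a single untrained library, Tg replicate 2 at 14.2 CPM, above the lowest trained library (log2FC 0.21, SE 0.040).

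**Figure D2:**
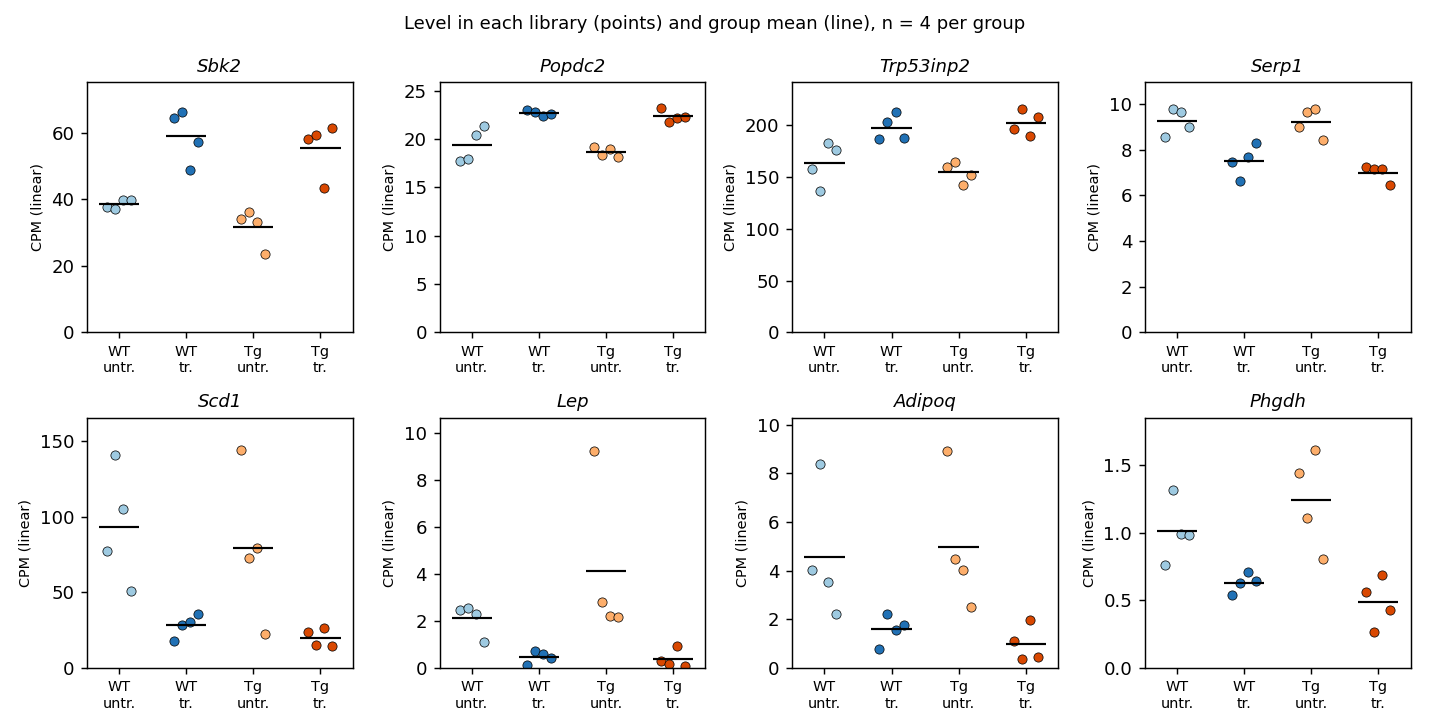
CPM on a linear axis in each library (points) with the mean of the group (line), for 4 groups of 4 libraries and 8 called genes. The trained libraries of Sbk2, Popdc2, Trp53inp2, Serp1, Lep and Phgdh do not overlap with the untrained ones, while Scd1 has 1 low untrained Tg library.

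The remaining named higher genes are described together here. Myct1, an endothelial gene that MYC activates, ran from 2.96 to 5.19 CPM (median 3.58) in trained and from 1.87 to 3.19 CPM (median 2.42) in untrained libraries (log2FC 0.58, SE 0.104, adjusted p = 0.0395). Of 14 endothelial markers, 14 had a positive log2FC but the median was 0.06 and 0 were called, and 7 of them changed sign between the genotypes. Hoxc10, a homeobox gene of hindlimb position, ran from 17.1 to 22.2 CPM (median 19.8) in trained and from 14.8 to 17.9 CPM (median 15.998) in untrained libraries (log2FC 0.28, SE 0.055). Iffo1, an intermediate filament relative, rose by a log2FC of 0.34, Wipf2, which binds actin regulators of the WASP family, by 0.28, Snx21, a sorting nexin, by 0.23, Zmiz2, a coactivator of nuclear receptors, by 0.29, and Gdpd1, a lysophospholipase D, by 0.33. Among these, 3 share their locus with another tested gene: Iffo1 overlaps Gapdh (1469 CPM on average, log2FC 0.31, adjusted p = 0.296), Snx21 overlaps Acot8 and Hoxc10 overlaps Hoxc5. Sbk2 overlaps Ssc5d on the opposite strand. Strand was not stated for the counting, so the reads of such genes cannot be told apart with certainty.

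Among the lower genes were members of a list of adipocyte genes. The list was chosen with earlier results of these data known, so its counts are a description. Of 26 tested adipokine and lipid droplet genes, 6 were called lower and 0 higher, against 33 lower and 15 higher among the 17490 tested genes, with a median of -0.29 against 0.0013. Of the 26, 19 were negative and 7 positive in sign. The called members were Lep, Adipoq, Cidec, Pparg, Cebpa and Nnat, in the order of their p. Lep encodes leptin, Adipoq adiponectin, Cidec a protein that fuses lipid droplets, Nnat neuronatin, and Pparg and Cebpa the transcription factors of adipocyte formation. Lep and Adipoq, the hormone genes of the list, are shown by the 250 bases before their transcription start (RefSeq, GRCm38.p6, plus strand, 5′ to 3′), with CCAAT on either strand in capitals. Lep covers chr6:29059971-29060220 and Adipoq chr16:23146286-23146535.
Lep: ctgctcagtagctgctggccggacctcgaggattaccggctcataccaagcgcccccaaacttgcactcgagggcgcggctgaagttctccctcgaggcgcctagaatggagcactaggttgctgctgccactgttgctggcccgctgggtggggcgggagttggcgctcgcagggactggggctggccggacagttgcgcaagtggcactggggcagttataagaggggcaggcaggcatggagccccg
Adipoq: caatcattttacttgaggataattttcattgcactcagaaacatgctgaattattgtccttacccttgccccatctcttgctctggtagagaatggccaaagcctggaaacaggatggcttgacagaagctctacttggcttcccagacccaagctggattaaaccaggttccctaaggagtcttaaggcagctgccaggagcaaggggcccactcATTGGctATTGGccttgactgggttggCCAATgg
The Adipoq window held CCAAT at positions -34, -27 and -7 before the start and the Lep window held none. In all, 5 motifs were searched on both strands of windows from 250 bases before to 50 bases after the start: TCACNCCAC, a sterol response element; TTGCATCA, the core of the amino acid response element; TGACGTCA, the cAMP response element; CACGTG, an E-box; and CCAAT. None of them contains another. Windows matched 11397 of the tested genes, 11 of the 15 higher and 28 of the 33 lower genes. A gene was counted once if any of its windows held the motif. CCAAT was found for 42.2% of all tested genes with a window, for 7 of the 11 higher (63.6%) and for 11 of the 28 lower ones (39.3%). CACGTG was found for 11.4% of all genes with a window, 1 higher and 2 lower, and TGACGTCA for 3.35%, 1 higher and 0 lower. TCACNCCAC was found for 1.41%, 0 higher and 1 lower, and TTGCATCA for 0.658% and for no called gene. A match is a description of letters only.

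Lep (ENSMUSG00000059201.12, GRCm38 chromosome 6, 29060220 to 29073877) had the largest change of the 48. Its WT untrained libraries measured 2.48, 2.56, 2.29 and 1.09 CPM and its WT trained libraries 0.112, 0.718, 0.602 and 0.437 CPM. Tg untrained libraries measured 9.21, 2.81, 2.20 and 2.18 CPM and Tg trained libraries 0.279, 0.158, 0.925 and 0.0583 CPM. No trained library reached the lowest untrained one, and Tg untrained replicate 1 was far above the others. The log2FC was -2.89 (SE 0.477, adjusted p = 0.0356, edgeR), -2.21 in WT and -3.53 in Tg, and without single libraries it ran from -3.17 to -2.47.

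Adipoq (ENSMUSG00000022878.5, GRCm38 chromosome 16, 23146536 to 23158028) measured 4.04, 8.41, 3.51 and 2.22 CPM in WT untrained and 0.781, 2.22, 1.57 and 1.77 CPM in WT trained libraries. In Tg it measured 8.93, 4.49, 4.01 and 2.49 CPM untrained and 1.12, 0.351, 1.97 and 0.427 CPM trained. WT trained replicate 2 touched WT untrained replicate 4, and all other trained libraries lay below all untrained ones. The log2FC was -1.94 (SE 0.376, adjusted p = 0.0439). Cidec went from a median of 2.89 CPM (1.57 to 6.90) in untrained to 0.900 CPM (0.158 to 1.68) in trained libraries, a log2FC of -1.97 (SE 0.391, adjusted p = 0.0475). Pparg fell by 0.54 on the log2 scale (SE 0.108), Cebpa by 0.95 and Nnat by 1.74. Nnat overlaps Blcap on the opposite strand.

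Members of the list just outside the threshold had the same sign. Plin1, the coat protein of the adipocyte droplet, measured a log2FC of -1.86 (adjusted p = 0.0542), Retn, the resistin gene, -1.90 (adjusted p = 0.0613), Acvr1c, an activin receptor of adipocytes, -1.73 (adjusted p = 0.0595), and Cfd, the adipsin gene, -1.62 (adjusted p = 0.0891). Counting these, 11 of the 26 were lower with an unadjusted p under 0.05 in each genotype and 1 was higher, Pnpla2, the triglyceride lipase of muscle and fat (log2FC 0.25, adjusted p = 0.106). The largest positive value was that of Cidea, a lipid droplet protein gene of brown and beige fat, at a log2FC of 0.93 (adjusted p = 0.137) and a mean of only 0.24 CPM. With single libraries left out, 0 to 10 members were called lower, and without Tg untrained replicate 4 Cidea (log2FC 1.17) and Pnpla2 (0.30) were called higher. Of the 14 tested adipocyte markers, 10 were not called, and 3 of the 14 had a positive log2FC. Among those not called, Lpl measured 0.24, Fabp4 -0.11, Plin4 -0.19 and Car3 -0.31. These abundant genes set the summed level of the 14 adipocyte markers, which ran from 861 to 1498 CPM in trained and from 1160 to 1627 CPM in untrained libraries. The mean log2 CPM of the same 14 markers ran from 2.46 to 3.20 in trained and from 3.16 to 3.945 in untrained libraries, where only WT untrained replicate 4 (3.16) fell within the trained range.

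With that mean marker level as a further covariate, 0 genes were called for training in edgeR, with 817 genes at an unadjusted p under 0.05 and a lowest adjusted p of 0.533. Lep, Adipoq, Cidec and Pparg are themselves in the marker level, so smaller changes for them were built into this fit. Of the 48 genes, 47 kept their sign, the exception being Nnat (log2FC 0.03), and 31 had an unadjusted p under 0.05. Adipoq went to -0.02, Cidec to -0.02, Sncg to -0.10, Tmem45b to -0.24, Phgdh to -0.29 and Scd1 to -0.54. Sbk2 went from 0.71 to 0.54 (adjusted p = 0.893, edgeR). Iffo1 measured 0.42, Slc5a3 -0.84, Itih5 -0.59, Dsel -0.45 and Srsf3 -0.25 in this fit, and none of them was called. The marker level and training go together in these libraries, so the part of each cannot be told apart for any of the 48 genes.

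Scd1 (ENSMUSG00000037071.3, GRCm38 chromosome 19, 44394455 to 44407879), the desaturase that makes monounsaturated fatty acids, was the most abundant lower gene past 2-fold. It ran from 14.5 to 35.8 CPM (median 25.1) in trained and from 22.5 to 144 CPM (median 78.2) in untrained libraries. Tg untrained replicate 4, at 22.5 CPM, was the only untrained library within the trained range. The log2FC was -1.87 (SE 0.295, adjusted p = 0.0356), -1.74 in WT and -2.00 in Tg. Of 29 tested lipogenic genes and their regulators, Scd1 alone was called, and the median was -0.08. Fasn, fatty acid synthase, measured -0.74 (adjusted p = 0.0797) and Acly, which supplies cytosolic acetyl-CoA, -0.26 (adjusted p = 0.12), each with an unadjusted p under 0.05 in both genotypes. Genes of cholesterol synthesis and uptake gave 0 calls of 20 and a median of -0.02, with 10 of them opposite in sign between the genotypes.

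**Figure D3:**
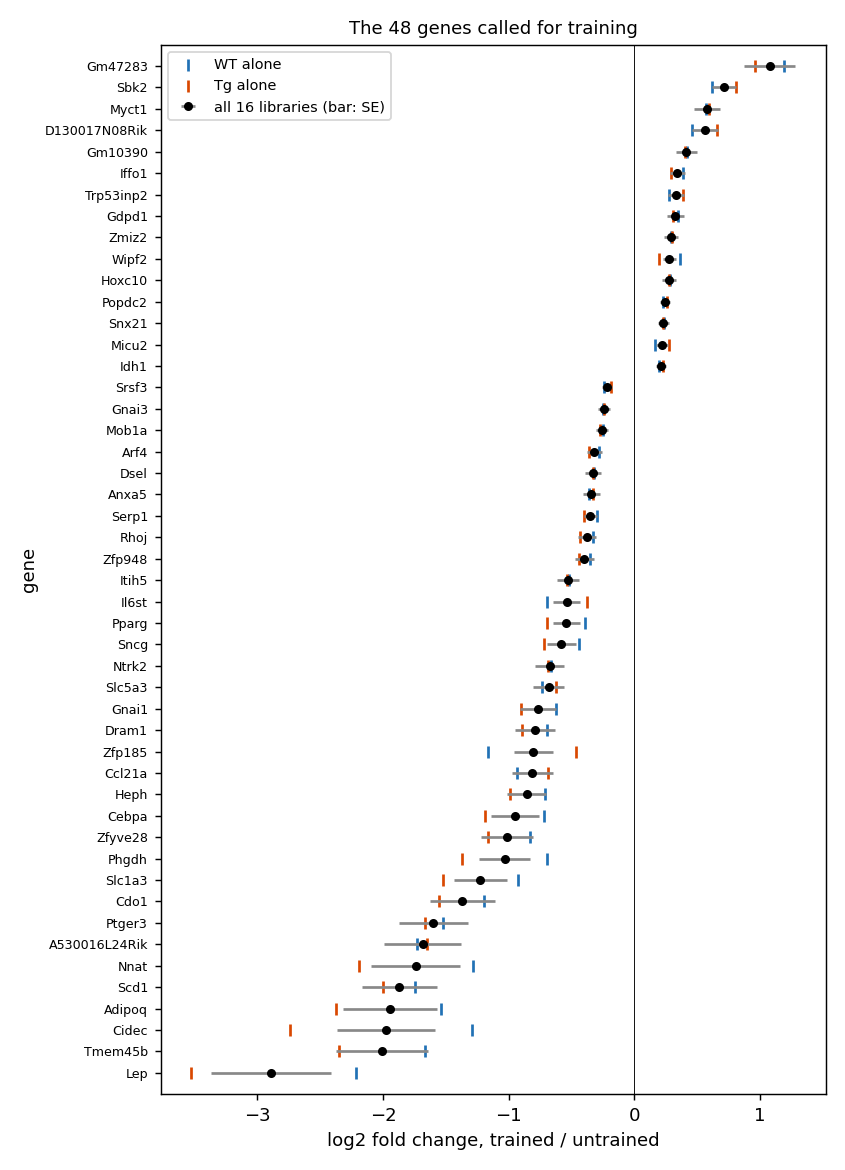
Training log2FC with SE of the 48 called genes over all 16 libraries (black), with the WT and Tg values as coloured ticks, ordered by size. Both ticks lie on the same side of 0 for every gene, and the Tg tick lies further from 0 for Lep, Cidec and Adipoq.

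Other lower genes, described together here for convenience after they were called, encode enzymes and transporters. Phgdh (ENSMUSG00000053398.11, GRCm38 chromosome 3, 98313170 to 98339990), which starts serine synthesis, measured 0.759, 1.32, 0.990 and 0.987 CPM in WT untrained and 0.539, 0.625, 0.707 and 0.645 CPM in WT trained libraries. In Tg it measured 1.44, 1.11, 1.62 and 0.805 CPM untrained and 0.558, 0.263, 0.689 and 0.427 CPM trained. The groups did not overlap (log2FC -1.03, SE 0.201, adjusted p = 0.0439), at a level near 1 CPM. Of the 32 tested genes of serine and one-carbon metabolism and the integrated stress response, Phgdh alone was called, and the median was -0.12. Cdo1, which oxidises cysteine on the way to taurine, fell by 1.37 on the log2 scale, from a median of 1.53 to 0.681 CPM. Slc1a3, a glutamate transporter gene, ran from 0.368 to 1.061 CPM in trained and from 1.18 to 2.51 CPM in untrained libraries, without overlap (log2FC -1.23, SE 0.211). Slc5a3, the myo-inositol transporter gene, ran from 6.85 to 11.7 CPM (median 9.24) in trained and from 10.2 to 18.4 CPM (median 15.1) in untrained libraries (log2FC -0.68, SE 0.124), and it shares its locus with Mrps6 on the same strand.

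Il6st, which encodes gp130, the shared receptor subunit of interleukin-6 type cytokines, was the most abundant of the 33. WT untrained libraries measured 175, 260.3, 187 and 182 CPM and WT trained libraries 125, 118, 127 and 126 CPM. Tg untrained libraries measured 194, 197, 128 and 127 CPM and Tg trained libraries 128, 122, 127 and 120.3 CPM. Trained libraries spanned a narrow range, and Tg untrained replicates 3 and 4 lay within it. The log2FC was -0.54 (SE 0.107, adjusted p = 0.0475), and of 19 tested genes of interleukin-6 family signalling Il6st alone was called (median -0.04). Ptger3, a prostaglandin E2 receptor gene, fell by 1.60 on the log2 scale without overlap. Its level was low, from 0.12 to 0.45 CPM in trained and from 0.56 to 1.32 CPM in untrained libraries. Ntrk2, which encodes the neurotrophin receptor TrkB, fell by 0.67. Gnai1 (log2FC -0.77) and Gnai3 (-0.24) encode alpha subunits of inhibitory G proteins, the class through which the receptor of Ptger3 mainly signals.

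Serp1, which guards membrane proteins at the endoplasmic reticulum translocon, measured 8.57, 9.79, 9.67 and 8.98 CPM in WT untrained and 7.46, 6.65, 7.70 and 8.30 CPM in WT trained libraries. In Tg it measured 9.01, 9.67, 9.79 and 8.41 CPM untrained and 7.24, 7.16, 7.14 and 6.45 CPM trained. All trained libraries were below all untrained ones (log2FC -0.35, SE 0.054, adjusted p = 0.0356); Serp1 overlaps Eif2a on the opposite strand. Arf4, a GTPase of Golgi traffic, fell by 0.32 on the log2 scale, Itih5, a hyaluronan-binding secreted protein gene that adipocytes also express, by 0.53, and Dsel, a dermatan sulfate epimerase relative, by 0.33. Heph, the copper-dependent ferroxidase hephaestin, fell by 0.85, Srsf3, a splicing factor gene, by 0.21 and Mob1a, a kinase activator of the Hippo pathway, by 0.26. Ccl21a was called lower at a log2FC of -0.81, but this chemokine gene has near-identical copies and its value is uncertain. Other lower genes were Tmem45b, a membrane protein gene (log2FC -2.01, without overlap, medians of 0.232 CPM trained and 0.8286 CPM untrained), Zfp948, a zinc finger gene (-0.40, without overlap), Dram1, an autophagy gene that p53 activates (-0.79), Sncg, gamma-synuclein of nerve and fat (-0.58), Anxa5, annexin A5 (-0.34), Zfyve28 (-1.01) and the unnamed A530016L24Rik (-1.68). The higher genes left to name were the unnamed models D130017N08Rik (0.56), Gm47283 (1.08) and Gm10390 (0.41).

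Some genes separated the libraries completely. All 8 trained libraries lay above all 8 untrained libraries for 19 genes (0.109% of tested genes), of which 5 were called: Sbk2, Popdc2, Trp53inp2, Snx21 and the unnamed Gm10390. All 8 trained libraries lay below for 13 genes (0.0743%), of which 12 were called, the exception being Cpz, a carboxypeptidase gene (log2FC -1.70, adjusted p = 0.0583). Higher genes that separated without a call, picked after their values were seen, were Cited4, a coregulator known from the trained heart (log2FC 0.62, adjusted p = 0.0583), Aspa, aspartoacylase (0.36, adjusted p = 0.0542), Mrps17, a mitochondrial ribosome protein gene (0.17, adjusted p = 0.072) and Sdhaf1, an assembly factor of complex II (0.24, adjusted p = 0.0925).

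With all 16 libraries no gene of the mitochondrial lists was called, and their shifts were small. Of 78 tested nuclear genes of oxidative phosphorylation, 77 had a positive log2FC, 74 of them in both genotypes, with a median of 0.15 and 0 called, against a median of 0.0013 over all tested genes. The positive sign in WT rested on WT untrained replicate 2: without it 20 of the 78 were positive in WT, at a median of -0.04, and 77 in Tg, at a median of 0.16. The smallest p of the list belonged to Ndufs4, a complex I subunit gene (log2FC 0.22, adjusted p = 0.174), and Cox5a, a complex IV subunit gene (0.27, adjusted p = 0.251). Pyruvate entry and the tricarboxylic acid cycle had 26 of 30 positive, 25 in both genotypes (median 0.14). Glycolysis and glucose uptake had 29 of 35 positive, 25 in both genotypes (median 0.14). Fatty acid uptake and oxidation had 27 of 36 positive, 21 in both genotypes and 10 opposite in sign (median 0.09). Each of these lists had 0 called. All 13 protein genes of the mitochondrial genome were positive, 10 of them in both genotypes (median 0.30, 0 called). The largest log2FC was 1.03 for mt-Co3 (2.09 in WT and -0.03 in Tg). That gene measured 5788 CPM in WT trained replicate 1 and 202.5 to 761 CPM in the other 15 libraries. The smallest p was that of mt-Nd6 (log2FC 0.40, adjusted p = 0.106). Near-identical nuclear copies of mitochondrial genes can share their reads, so these values are uncertain. Ppargc1a, which encodes PGC-1alpha, measured 0.46 (adjusted p = 0.152), and of 27 regulators of mitochondrial biogenesis 0 were called (median 0.05). Disulfide relay and CHCH-domain genes, the family that CHCHD4 serves, had 28 of 32 positive, 21 in both genotypes (median 0.12, 0 called).

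These medians moved with single libraries to different extents. Without WT untrained replicate 2, the library lowest in myofibre markers, the median was 0.07 for oxidative phosphorylation, 0.07 for the tricarboxylic acid cycle, 0.07 for glycolysis and 0.03 for fatty acid oxidation, while it was 0.08 for the disulfide relay genes. Cox5a (log2FC 0.18) was called without that library, and mt-Nd6 was called without WT trained replicate 4 (0.45) and without WT untrained replicate 3 (0.49). The lowest median of the protein genes of the mitochondrial genome was 0.22, without Tg untrained replicate 3. In WT alone, the medians without WT untrained replicate 2 were -0.03 for the tricarboxylic acid cycle, 0.05 for glycolysis and for fatty acid oxidation, 0.05 for the mitochondrial genome and 0.0033 for the disulfide relay genes. Myofibre markers themselves were positive in 15 of 15 cases, 12 of them in both genotypes, with a median of 0.11, and 0.04 without that library. Without the 4 libraries with raised Myh7 the medians were 0.01 for oxidative phosphorylation, -0.02 for fatty acid oxidation, 0.01 for myofibre markers and 0.11 for the protein genes of the mitochondrial genome. The part of the fibre share in these shifts was not tested.

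**Figure D4:**
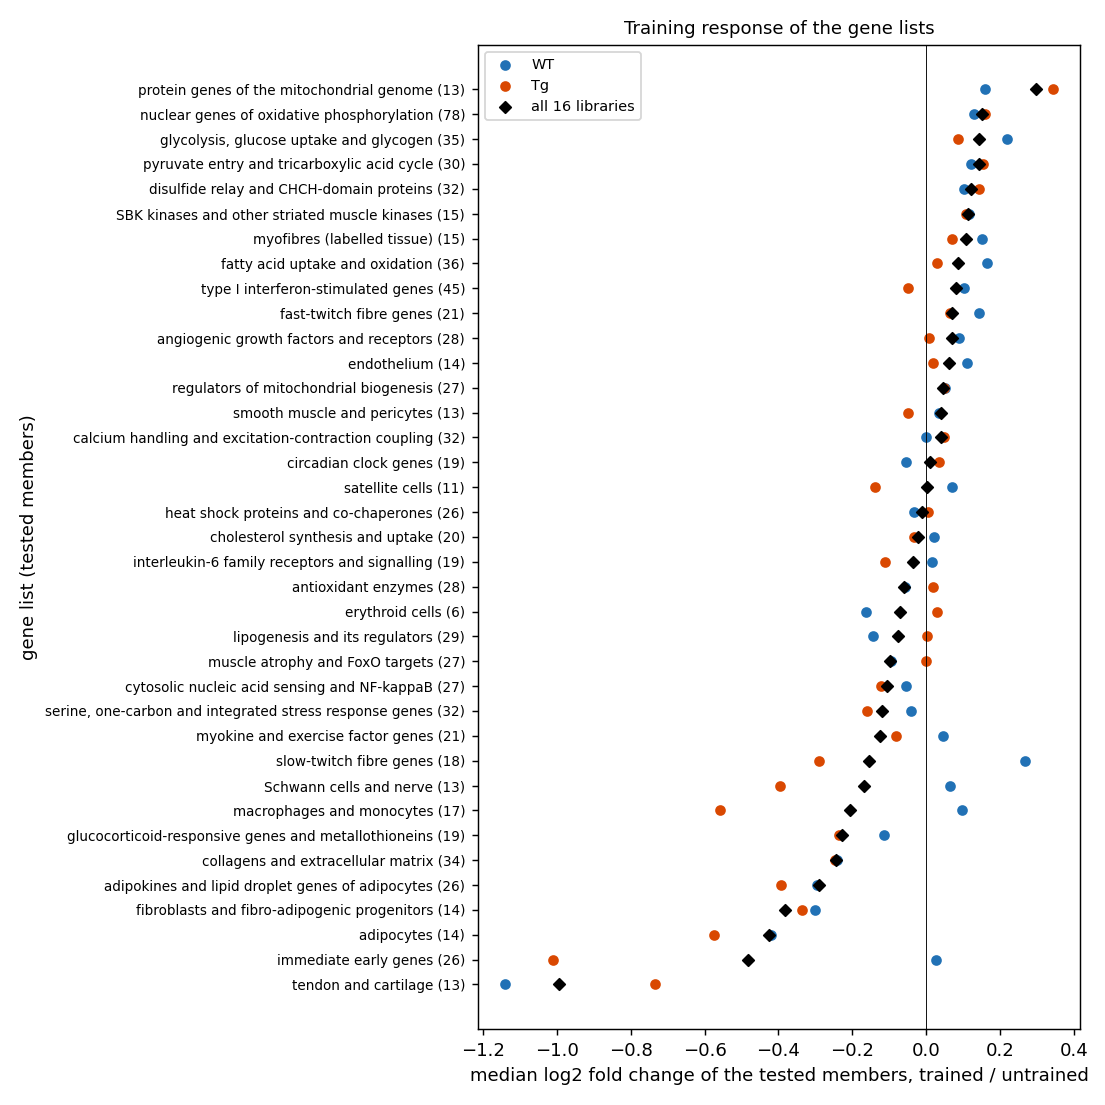
Median training log2FC of the tested members of each gene list over all 16 libraries (black), in WT (blue) and in Tg (orange), with the number of tested members in brackets. Tendon, adipocyte and fibroblast lists lie below 0 in both genotypes, oxidative phosphorylation lies above 0 in both (in WT at -0.04 without WT untrained replicate 2), and the immediate early genes lie near 0 in WT and at -1.01 in Tg.

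Marker RNA of matrix-producing cells was negative in sign, and no gene of these lists was called. All 14 markers of fibroblasts and fibro-adipogenic progenitors had a negative log2FC, 12 of them in both genotypes (median -0.38), as had 12 of 13 tendon and cartilage markers (median -0.99) and 31 of 34 collagen and matrix genes (median -0.24). Dcn, the proteoglycan decorin, was nearest to a call among them (log2FC -0.66, adjusted p = 0.0583), and Chad, a cartilage matrix gene, led the tendon list (-1.37, adjusted p = 0.106). The summed tendon markers ran from 26.7 to 131 CPM in trained and from 120.5 to 239 CPM in untrained libraries, with 3 trained libraries, WT replicate 4 and Tg replicates 1 and 3, inside the untrained range. Without WT trained replicate 4, 7 collagen and matrix genes and 4 fibroblast markers were called lower. Macrophage markers (5 of 17 positive, median -0.21, 0 called) did not share a direction, with medians of 0.10 in WT and -0.56 in Tg and 8 of 17 opposite in sign. Without WT trained replicate 4 their median was -0.47 overall and -0.36 in WT.

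**Figure D5:**
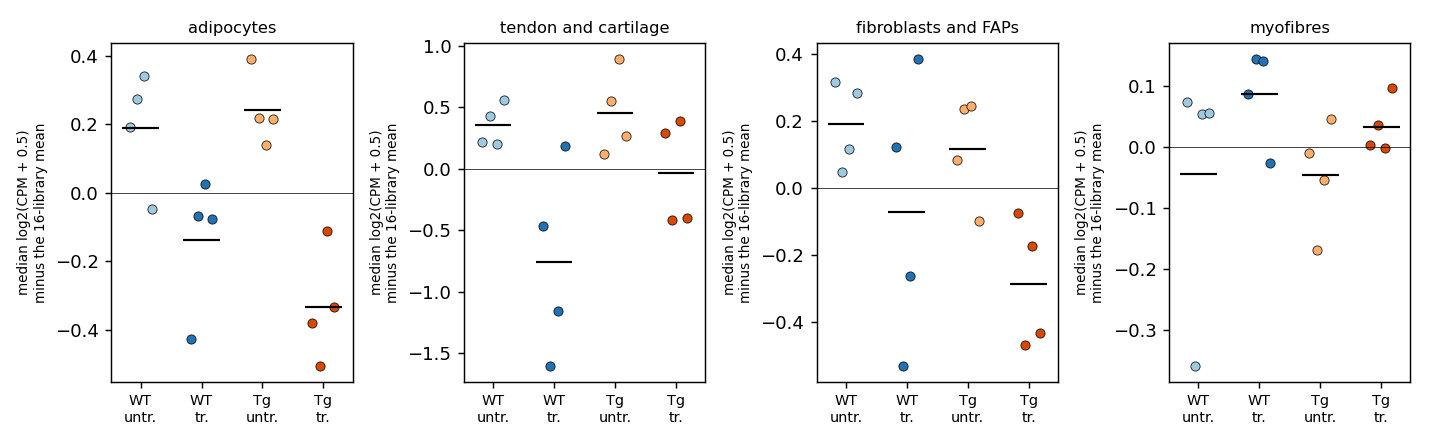
Median over the markers of 4 cell types of the log2(CPM + 0.5) minus its mean over the 16 libraries, per library (points) with the group mean (line). Trained libraries lie mostly below untrained ones for adipocyte, tendon and fibroblast markers, and WT untrained replicate 2 lies lowest for myofibre markers.

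Other lists held no called gene, and some did not share a direction between the genotypes. All 26 immediate early genes, which respond to stimuli within minutes, had a negative log2FC (median -0.48), but 14 of them had opposite signs, with medians of 0.03 in WT and -1.01 in Tg, and Ccn2, a YAP target, was nearest to a call (-1.08, adjusted p = 0.0827). Slow-twitch genes had a median of -0.16 with 10 of 18 opposite, and 0.03 without Tg untrained replicate 2. Fast-twitch genes had 20 of 21 positive, 15 in both genotypes (median 0.07), and calcium-handling genes 21 of 32, 14 in both (median 0.04). Angiogenic growth factors and receptors had a median of 0.07, with Thbs1, an inhibitor of vessel growth, at -1.72 (adjusted p = 0.0733) and Vegfa at 0.25 (adjusted p = 0.416). Interferon-stimulated genes had a median of 0.08 with 22 of 45 opposite and atrophy genes -0.10. Glucocorticoid-responsive genes had a median of -0.23 with 18 of 19 negative, 13 in both genotypes. Clock genes (median 0.01), heat shock genes (-0.01), antioxidant enzymes (-0.06), myokine genes (-0.13) and nucleic acid sensing genes (-0.11) also held 0 called genes. Among the other cell types, median log2FC was 0.04 for smooth muscle and pericytes, -0.07 for 6 erythroid genes, -0.17 for Schwann cells and nerve and 0.0012 for satellite cells. Only 3 of 14 lymphocyte, 2 of 10 neutrophil and 2 of 12 liver markers were expressed enough to test, and none of them was called.

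The calls stood at the edge of the threshold. The largest adjusted p among the 48 was 0.0498, the next gene had 0.0501, and 127 genes lay between 0.05 and 0.1. With single libraries left out, only Sbk2 stayed called when the library was WT trained replicate 1, 2 or 3, Tg trained replicate 2 or 4, or Tg untrained replicate 1 or 2. There were 2 called genes when WT untrained replicate 1 was left out and 13 and 20 for replicates 3 and 4 of that group. Leaving out Tg trained replicates 1 and 3 gave 6 and 17 genes, and Tg untrained replicates 3 and 4 gave 7 and 69. The count rose further when the library was WT untrained replicate 2 (178 genes) or WT trained replicate 4 (382 genes). No called gene changed sign in any of these 16 fits, and Lep, Scd1 and Itih5 each lost their call in 9 of them. With the replicate number as a block, Sbk2 alone was called. DESeq2 called 357 genes and limma-voom 22, and a fit with a mean per group and the contrast averaged over the genotypes called 80, with all 48 among them and 73 of the 80 in the same direction in both genotypes.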

How the data were processed

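RNA-seq of 16 libraries (4 groups of 4) was analysed from the table of expected counts that the authors deposited, which is not normalized and holds 55487 genes, 12.48% of its values not being whole. STAR 2.7.8a, RSEM 1.3.2 and the mm10 build are named in the submitters' processing notes, while the annotation release and strand setting are not given in the sources used here. Because RSEM apportions shared reads by estimate, near-identical copies are uncertain.

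Expected counts were rounded, and filterByExpr by group left 17490 genes, 17469 of them with a position in GENCODE's GRCm38 annotation. Training was tested with edgeR 4.0.16 (R 4.3.3, limma 3.58.1) by its quasi-likelihood F test with genotype as covariate and TMM scaling. Training within each genotype and the difference came from a fit with a mean per group over all libraries. Calls required an adjusted p (Benjamini-Hochberg, over all tested genes) under 0.05. CPM were scaled after TMM, and the biological coefficient of variation was 14.42%. Replicate pairs all differed by more than sampling noise (chi-square per degree of freedom of 7.31 or more). The script was tested on simulated data.

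The comparison, the 27 pathway and 13 marker lists and the tests were chosen with earlier results of these data known. Named genes were the 15 with the smallest p in each direction, if called, named and at a mean of 1 CPM or more, plus up to 4 called members, or 2 others, of each list; any other gene was picked after its values were seen. Alternatives were RLE scaling, other filters, DESeq2 1.42.0, limma-voom, robust dispersion, the averaged contrast, the genotypes fitted alone and a replicate block. Others left out each library, libraries with raised Alb or Myh7, or mitochondrial ribosomal RNA and 7SL and 7SK RNA. An adipocyte marker covariate was added after seeing the data.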

Additional observations from a re-analysis of the deposited data

Results flagged for a closer look

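The 31 called genes picked by the rule for named genes were checked in each group of 4 libraries. A library was flagged if its gap to the nearest other exceeded Dixon's 95% limit, and 8 of 124 checks did so, where chance gives about 1 in 20. Of these, 3 lay in WT untrained replicate 2: Il6st at 260.3 CPM against 174.8 to 187.4 in the other libraries of its group, Ntrk2 at 5.14 CPM against 4.22 to 4.36, and Slc1a3 at 2.04 CPM against 1.179 to 1.297. In WT untrained replicate 3, Idh1 measured 12.5 CPM against 12.91 to 12.99, and Hoxc10 17.7 CPM against 15.9 to 16.1. Tg untrained replicate 1 held Lep at 9.21 CPM against 2.18 to 2.81 in its group. Among trained Tg libraries, Serp1 measured 6.45 CPM in replicate 4 against 7.14 to 7.24, and Slc5a3 11.7 CPM in replicate 1 against 9.11 to 9.48.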

How the results depend on the processing

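No called gene described by name reversed its direction under any alternative except Nnat with the adipocyte marker covariate, where it was near 0 (log2FC 0.03). Leaving out single libraries gave 1 to 382 called genes (1 to 75 higher, 0 to 307 lower, 1 to 382 with the same direction). The counts were 16 to 30 for the WT contrast, 0 to 93 for the Tg contrast and 6 to 12 for the difference. The share of tested genes with the same direction ran from 54.47% to 62.28%. Outside that range were 54.25% without the libraries with raised Myh7 and 47.66% without a filter on low counts. RLE scaling gave 40 called genes, a CPM filter 41, robust dispersion 42 and removal of mitochondrial ribosomal RNA and 7SL and 7SK RNA 48. Without a filter on low counts, 50 genes were lower, 5 were called in Tg and 15 for the difference. DESeq2 called 357 (135 higher, 222 lower, 354 with the same direction), with 68 in WT, 126 in Tg and 35 for the difference. Limma-voom called 22 (8 higher, 14 lower, 22 with the same direction), and the averaged contrast 80, of which 34 were higher and 73 had the same direction. Without the libraries with raised Alb, 499 were called (127 higher, 372 lower, 499 with the same direction), 42 in WT and 104 in Tg. Without those with raised Myh7, 7 were called (4 higher, 3 lower, 7 with the same direction), 9 in Tg and 4 for the difference. The adipocyte marker covariate left 0 called, 0 higher and 0 lower. Fitting the libraries of 1 genotype alone gave 10 genes in WT and 123 in Tg. With the replicate number as a block, 1 gene was called (1 higher, 0 lower, 1 with the same direction), Sbk2. Libraries that share a number across groups had a mean correlation of 0.0184 over 24 pairs against -0.0047 over 72 other pairs. Single pairs ran from -0.259 to 0.272 and from -0.36 to 0.29, so these values do not decide whether the numbers pair the libraries. The causes of these differences were not tested. Precision is limited by 4 libraries a group and, for genes near 1 CPM, by depth.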
